A study of Mus musculus with 6 samples.

Results

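Transcripts of 9 secreted Wnt inhibitors (Dkk1, Dkk2, Dkk3, Dkk4, Sfrp1, Sfrp2, Frzb, Wif1 and Sostdc1) and of the Dkk co-receptor Kremen1 were followed in mouse forelimb bud ectoderm with and without the zinc finger transcription factor Sp8. The 10 genes were chosen by name, with earlier results of these data known but by no threshold on their values, from the 49452 genes measured. Poly(A) RNA was sequenced from 3 Sp8 null and 3 wild-type embryos at E10.5 (embryonic day), and each library held the trypsin-freed ectoderm of both forelimbs of 1 embryo. Null embryos came from intercrosses of mice heterozygous for an Sp8 allele that carries Cre-ERT2, and wild-type embryos came from C57BL/6 inbred crosses; the background strain of both is given as C57BL6J. Because the genotypes came from different crosses, genotype and litter cannot be told apart. The sample name starts with 4 for embryo 1 of either genotype and with 5 for all others, and what that number stands for is not given in the sources used here.

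Canonical Wnt signalling starts when a Wnt protein joins a Frizzled receptor to the co-receptors Lrp5 or Lrp6, after which β-catenin accumulates and acts with TCF/LEF factors on target genes. Dkk1, Dkk2 and Dkk4 bind Lrp5 and Lrp6, and Kremen proteins bind Dkk and help to remove Lrp6 from the cell surface. Sfrp proteins, Frzb and Wif1 bind Wnt proteins themselves, and Sostdc1 binds Lrp receptors as well as bone morphogenetic proteins. In the limb bud, β-catenin signalling in the ectoderm is needed to form and keep the apical ridge, and mouse embryos without Dkk1 have an expanded ridge and digit defects.

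TCF/LEF factors bind a short core sequence, so the stretches of the inhibitor promoters that hold that core are shown for the genes in which it was found. RefSeq promoter entries of GRCm38.p6 matched 5 of the 10 genes (Dkk1, Dkk2, Frzb, Sfrp2 and Wif1). In the 250 bases before the RefSeq start, CTTTGA or CTTTGT on either strand was found in Dkk1, Dkk2 and Frzb, and each stretch below is 30 bases long, 5′ to 3′ on the gene's strand, with the matches in capitals.
Dkk1, 119 to 90 bases before the RefSeq start (chr19:30549586-30549615, minus strand): agCTTTGAaatcccatcccggCTTTGTtgt
Dkk1, 186 to 157 bases before the RefSeq start (chr19:30549653-30549682, minus strand): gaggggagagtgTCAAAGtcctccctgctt
Dkk2, 92 to 63 bases before the RefSeq start (chr3:132085200-132085229, plus strand): aacgttttcactCTTTGTcactcttgaatt
Frzb, 107 to 78 bases before the RefSeq start (chr2:80447474-80447503, minus strand): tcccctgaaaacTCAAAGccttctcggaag
Dkk1 thus held 3 matches and Dkk2 and Frzb 1 each. The GENCODE M21 models of Dkk1 (from base 30549665) and Frzb (from base 80447625), whose gene coordinates are used below, start upstream of the RefSeq starts. By those models the first Dkk1 stretch and the Frzb stretch lie inside the annotated gene, the second Dkk1 stretch spans the GENCODE start, and the Dkk2 stretch lies before it. Among 32841 promoter windows of the same length, 13.8% held CTTTGA and 16.5% held CTTTGT. The GC box GGGCGG and the homeodomain core TAATTA were searched for as well. GGGCGG was found in Dkk2, Frzb and Wif1 but not in Dkk1 or Sfrp2, and in 32.7% of all windows. TAATTA was found in none of the 5 promoters, and in 4.84% of all windows. Binding was not measured, so the matches describe the letters of these windows only.

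The genotype labels were checked first. Sp8 itself lay between 0.46 and 1.14 FPKM in the null libraries and between 8.35 and 13.5 FPKM in the wild-type libraries. FPKM scales the fragments of a gene by transcript length and by library size, so levels can be set beside each other between genes. Relative to wild-type embryo 1 the depth of the libraries ranged from 0.843 to 1.03. All 12 surface ectoderm markers passed the filter on low values, which required at least 1 FPKM in at least 3 libraries, and their summed level was 675 to 821 FPKM in Sp8 null and 819 to 894 FPKM in wild type. Among them Tfap2a was higher (log2 fold change 0.52) and Epcam lower (-0.53) in Sp8 null (limma adjusted p = 0.0163 and 0.0313); the first call was lost without wild-type embryo 1 or 3 and the second without any library but Sp8 null embryo 3. Limb mesenchyme markers were present too, with sums of 218 to 334 FPKM in Sp8 null and 183 to 237 FPKM in wild type, while endothelial and macrophage markers summed to at most 4.38 and 2.80 FPKM. Erythroid markers summed to 61.9 to 161 FPKM in Sp8 null and 11.6 to 422 FPKM in wild type. Those of muscle precursors and of neural crest derivatives summed to at most 17.7 and 11.9 FPKM. Nearly all of the muscle sum came from Met (11.2 to 17.4 FPKM) and most of the neural crest sum from Erbb3 (8.34 to 10.4 FPKM). The labels do not say whether embryos of a group shared a litter, and p-values measure the spread between these embryos.

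Sostdc1, Sfrp1 and Kremen1 were the most abundant of the 10 transcripts in both genotypes, at 5.38 FPKM or more in every library, and Dkk2 was the least abundant. In wild type the order of the means was Sostdc1, Sfrp1, Kremen1, Frzb, Dkk1, Dkk3, Wif1, Sfrp2, Dkk4 and Dkk2. The wild-type ranges of Sostdc1 and Sfrp1 overlapped, as did those of Frzb and Dkk1 and those of each neighbouring pair from Dkk3 to Dkk4. In Sp8 null, Dkk1 stood in place 9 and Dkk4 in place 5, the reverse of their places in wild type, and the range of Sostdc1 no longer overlapped that of Sfrp1. The other neighbouring pairs from Frzb to Sfrp2 overlapped in Sp8 null.

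**Figure D1:**
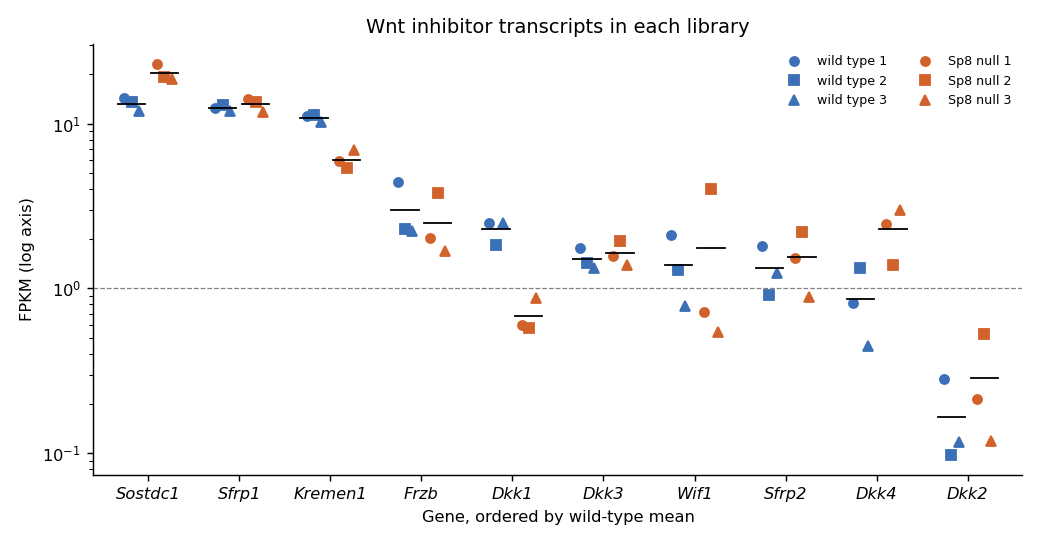
FPKM (log axis) of each gene in each library, with wild-type libraries in blue, Sp8 null libraries in orange, group means as bars and the dashed line at 1 FPKM. Dkk1 and Kremen1 lie lower, and Sostdc1 and Dkk4 higher, in all 3 Sp8 null libraries than in any wild-type library.

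Dkk1 and Kremen1 fell and Sostdc1 rose in Sp8 null ectoderm. These are 3 of the 9 genes that passed the filter, while across all tested genes 829 of 12133 were called different (6.83%; limma, Benjamini-Hochberg adjusted p under 0.05), 1.68% higher and 5.15% lower. Dkk1 passed the filter through its wild-type libraries alone, so the count of called genes among the 9 is a description. Groups did not overlap for 4 of the 10 genes (Dkk1, Kremen1, Sostdc1 and Dkk4), against 29.8% of tested genes. Of all calls 24.6% were higher in Sp8 null, and this share was 37.2% with median-of-ratios scaling and 41.7% with upper-quartile scaling. Fold changes are differences of log2(FPKM + 1), a scale on which a low gene such as Dkk4 shows less than its full change.

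Among the ligands of Lrp5 and Lrp6, Dkk1 (ENSMUSG00000024868; GRCm38, chromosome 19, 30545863 to 30549665, minus strand) stood at 2.51, 1.84 and 2.51 FPKM in wild-type embryos 1, 2 and 3 and at 0.598, 0.572 and 0.875 FPKM in Sp8 null embryos 1, 2 and 3. Every Sp8 null library was thus under 1 FPKM and every wild-type library well above it. The means were 2.29 ± 0.384 FPKM in wild type and 0.682 ± 0.168 FPKM in Sp8 null (SD, n = 3 each), a ratio of 3.36. The log2 fold change was -0.97 (SE 0.14, 95% interval -1.29 to -0.64; limma, Benjamini-Hochberg adjusted p = 0.00829). In the authors' deposited table, the mean was 218 for wild type and 69.5 for Sp8 null on a scale of read counts, with a fold change of -2.62. With no filter on low values, where 1.23% of genes were called, the call was lost (limma adjusted p = 0.0534) at the same fold change. It held without any single library (log2 fold changes from -1.07 to -0.91), and with a pseudocount of 0.1 in place of 1 the log2 fold change was -1.62.

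Dkk4, which is itself a known target of Wnt signalling in skin placodes, had its means in the opposite order (ENSMUSG00000031535; chromosome 8, 22624043 to 22627547, plus strand). It stood at 0.818, 1.34 and 0.446 FPKM in wild-type embryos 1, 2 and 3 and at 2.46, 1.39 and 3.0 FPKM in Sp8 null embryos 1, 2 and 3. The groups did not overlap, but the lowest Sp8 null library (embryo 2) and the highest wild-type library (embryo 2) lay close together. The log2 fold change was 0.81 (SE 0.24, 95% interval 0.25 to 1.37) and did not pass the threshold (limma adjusted p = 0.0907). No alternative brought it past the threshold, the limma adjusted p lying between 0.061 and 0.322. The authors' deposited table gave means of 42.6 for wild type and 111 for Sp8 null and a p-value of 2.5e-05, from a test that is not described. The ratio of Dkk4 to Dkk1 FPKM, computed after these values were seen, was 0.178 to 0.725 in wild type and 2.43 to 4.11 in Sp8 null.

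Dkk2 did not reach 1 FPKM in any library and was not tested with the filter. Its values were 0.28, 0.0971 and 0.116 FPKM in wild-type embryos 1, 2 and 3 and 0.214, 0.528 and 0.118 FPKM in Sp8 null embryos 1, 2 and 3, so the groups overlapped. Without a filter its log2 fold change was 0.13 (SE 0.13, limma adjusted p = 0.673). Dkk3, the divergent family member that is not known to bind Lrp6 as the others do, was at 1.33 to 1.75 FPKM in wild type and 1.39 to 1.94 FPKM in Sp8 null. Its log2 fold change of 0.07 had a 95% interval from -0.23 to 0.37 (limma adjusted p = 0.778), so a change as large as that of Dkk1 lay outside the interval.

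**Figure D2:**
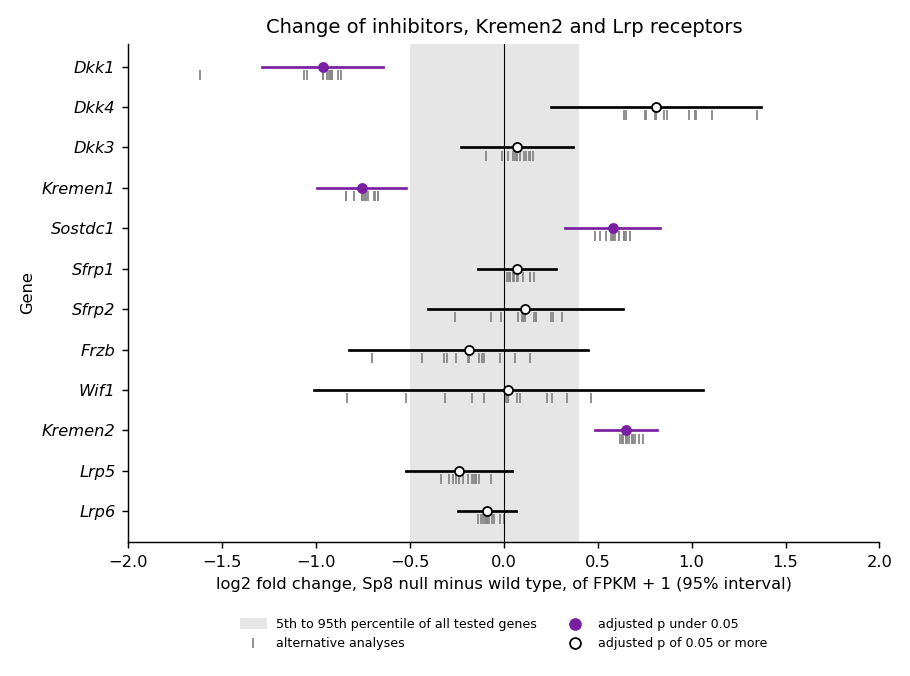
Log2 fold change of FPKM + 1 (Sp8 null minus wild type) with its 95% interval for the tested inhibitors, Kremen2 and the Lrp receptors; ticks are the alternative analyses and the grey band spans the 5th to 95th percentile of all tested genes (-0.50 to 0.40). Dkk1 (-0.97) and Kremen1 (-0.76) lie left of the band, and Sostdc1 (0.58), Kremen2 (0.65) and Dkk4 (0.81, not called) right of it.

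Kremen1, the Dkk co-receptor (ENSMUSG00000020393; chromosome 11, 5191552 to 5261558, minus strand), fell in Sp8 null ectoderm. It was measured at 11.2, 11.3 and 10.2 FPKM in wild-type embryos 1, 2 and 3 and at 5.91, 5.38 and 6.90 FPKM in Sp8 null embryos 1, 2 and 3. Every Sp8 null library was well below every wild-type library, and the wild-type values lay close together. The log2 fold change was -0.76 (SE 0.10, 95% interval -0.99 to -0.52; limma adjusted p = 0.00645). The call held without any single library, with log2 fold changes from -0.84 to -0.69.

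Kremen2, the paralogue of Kremen1 and not one of the 10 genes, rose (ENSMUSG00000040680; chromosome 17, 23741197 to 23745833, minus strand). It stood at 12.2, 11.7 and 11.2 FPKM in wild-type embryos 1, 2 and 3 and at 18.4, 18.8 and 19.5 FPKM in Sp8 null embryos 1, 2 and 3, with no overlap. Its log2 fold change was 0.65 (SE 0.07, limma adjusted p = 0.00269) and was called in all 17 alternatives. The summed FPKM of both genes, taken after their values were seen, was 21.4 to 23.5 in wild type and 24.2 to 26.4 in Sp8 null. Kremen1 made up 47.7% to 49.1% of that sum in wild type and 22.2% to 26.1% in Sp8 null. The exons of Kremen2 overlap those of the antisense gene 9530082P21Rik, listed at 2.9 to 3.8 FPKM with a log2 fold change of 0.03, and the use of strand in the counting is not stated.

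**Figure D3:**
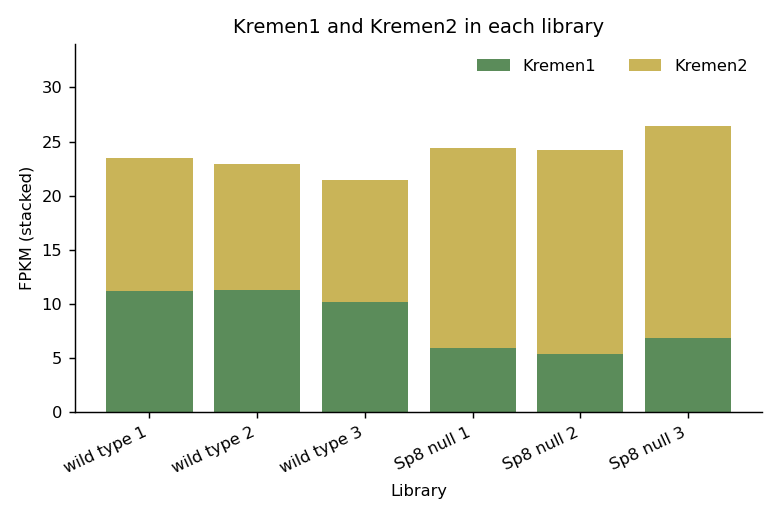
Stacked FPKM of Kremen1 and Kremen2 in each library. The sum lies between 21.4 and 26.4 FPKM in all 6 libraries, with Kremen1 near 48% of it in wild type and at 22.2% to 26.1% in Sp8 null.

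Sostdc1, which binds Lrp receptors and bone morphogenetic proteins (ENSMUSG00000036169; chromosome 12, 36314139 to 36318452, plus strand), was the called gene that rose. Its levels were 14.4, 13.5 and 11.9 FPKM in wild-type embryos 1, 2 and 3 and 23.2, 19.3 and 18.6 FPKM in Sp8 null embryos 1, 2 and 3. All Sp8 null libraries were above all wild-type libraries, with embryo 1 the highest of each group. The means of 13.3 ± 1.27 and 20.4 ± 2.48 FPKM (SD, n = 3 each) differed 1.54-fold, and the log2 fold change was 0.58 (SE 0.11, 95% interval 0.33 to 0.83; limma adjusted p = 0.0229). The call was lost without Sp8 null embryo 1 (log2 fold change 0.49, limma adjusted p = 0.0605), Sp8 null embryo 2 (0.61, 0.055), wild-type embryo 2 (0.59, 0.0829) or wild-type embryo 3 (0.51, 0.0621).

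Among the inhibitors that bind Wnt proteins, no member was called. Sfrp1 (ENSMUSG00000031548), which resembles the Wnt-binding part of Frizzled receptors, was at 12.6, 13.1 and 11.9 FPKM in wild-type embryos 1, 2 and 3 and at 14.2, 13.5 and 11.8 FPKM in Sp8 null embryos 1, 2 and 3. The groups overlapped, and the 95% interval of its log2 fold change of 0.07 ran from -0.14 to 0.28 (limma adjusted p = 0.685). Sfrp1 thus had the narrowest interval of the 9 tested genes.

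Sfrp2, Frzb and Wif1 varied more between embryos of the same genotype than between genotypes. Frzb, also known as Sfrp3, was at 4.42, 2.30 and 2.22 FPKM in wild-type embryos 1, 2 and 3 and at 2.03, 3.78 and 1.69 FPKM in Sp8 null embryos 1, 2 and 3. Sfrp2 was at 1.82, 0.914 and 1.24 FPKM in the wild-type embryos and 1.53, 2.21 and 0.89 FPKM in the Sp8 null embryos, in the same order. Wild-type embryo 1 and Sp8 null embryo 2 were the highest of their groups for both genes. Wif1 had the widest spread, with 2.11, 1.29 and 0.782 FPKM in the wild-type embryos and 0.722, 4.03 and 0.54 FPKM in the Sp8 null embryos. The log2 fold changes were -0.19 for Frzb (95% interval -0.82 to 0.45), 0.11 for Sfrp2 (-0.41 to 0.64) and 0.02 for Wif1 (-1.01 to 1.06), with limma adjusted p-values of 0.717, 0.795 and 0.981. For Wif1 a change of the size seen for Dkk1 was not detectable at this spread. The exons of Sfrp2 overlap those of the antisense gene Gm26771, listed at 0.896 to 2.05 FPKM.

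Within each genotype these genes were highest in the same library as most markers of limb mesenchyme, the tissue under the ectoderm. Of the 14 mesenchyme markers, 11 passed the filter and 2 were called, Sox9 (log2 fold change 1.03) and Lmx1b (1.07), both higher in Sp8 null. The median log2 fold change of the list was 0.67, against -0.06 over all tested genes. A negative log2 fold change was found for 3 of the 11, the largest for Pdgfra (-1.15, limma adjusted p = 0.12). Pdgfra had means of 21.6 FPKM in wild type and 10.6 FPKM in Sp8 null, with no overlap. No marker of the list was listed at 0 in all libraries. The summed level was 237, 183 and 188 FPKM in wild-type embryos 1, 2 and 3 and 229, 334 and 218 FPKM in Sp8 null embryos 1, 2 and 3. Meis1, Meis2 and Tcf4 had the highest wild-type means of the list (41.7, 57.7 and 45.6 FPKM). They therefore weigh most in the wild-type sums. Prrx1, a homeobox gene of limb mesenchyme, was at 16.5, 3.92 and 9.93 FPKM in the wild-type embryos and 13.6, 53.3 and 12.0 FPKM in the Sp8 null embryos. The libraries highest in the sum were therefore wild-type embryo 1 and Sp8 null embryo 2.

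Dkk2, Dkk3, Sfrp2, Frzb and Wif1, 5 of the 10 genes, were highest in those same libraries within each genotype, as were 10 of the 14 mesenchyme markers and 16.2% of tested genes. Of the other markers, Hand2 was not highest in wild-type embryo 1. In Sp8 null embryo 2, Meis1, Meis2 and Sox9 were at 0.741, 0.852 and 0.94 times the mean of the other null libraries. Wif1 in Sp8 null embryo 2 was 6.39 times the mean of the other Sp8 null libraries, and Prrx1 was 4.18 times that mean. Frzb was 2.03 times the mean in that library and 1.96 times in wild-type embryo 1. Dkk1, Dkk4, Kremen1 and Sfrp1 were highest in neither library. In Sp8 null embryo 2 the level of Dkk4 was 0.509 times, that of Dkk1 0.776 times and that of Kremen1 0.84 times the mean of the other null libraries. In wild-type embryo 1 the corresponding values were 0.917 times for Dkk4, 1.15 times for Dkk1 and 1.04 times for Kremen1. In bulk ectoderm, fewer cells of a type and less RNA per cell cannot be told apart.

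With both of these libraries left out, Dkk1 (-0.87), Kremen1 (-0.67) and Sostdc1 (0.67) kept their direction but none was called (limma adjusted p = 0.0756, 0.053 and 0.073), in a fit of 2 libraries against 2 that called 325 genes. With the log2 marker sum as a covariate, Kremen1 stayed called (-0.67, limma adjusted p = 0.0457), while Dkk1 (-0.94, 0.0529) and Sostdc1 (0.57, 0.112) did not, and the log2 fold change of Frzb became -0.70 (0.0651) and that of Wif1 -0.83 (0.109). In the 4 libraries whose names start with 5 the log2 fold changes were -0.88 for Dkk1, -0.73 for Kremen1 and 0.55 for Sostdc1 (limma adjusted p = 0.1, 0.0839 and 0.0827). Names starting with 4 belong to a single embryo per genotype, which leaves that set without a test.

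**Figure D4:**
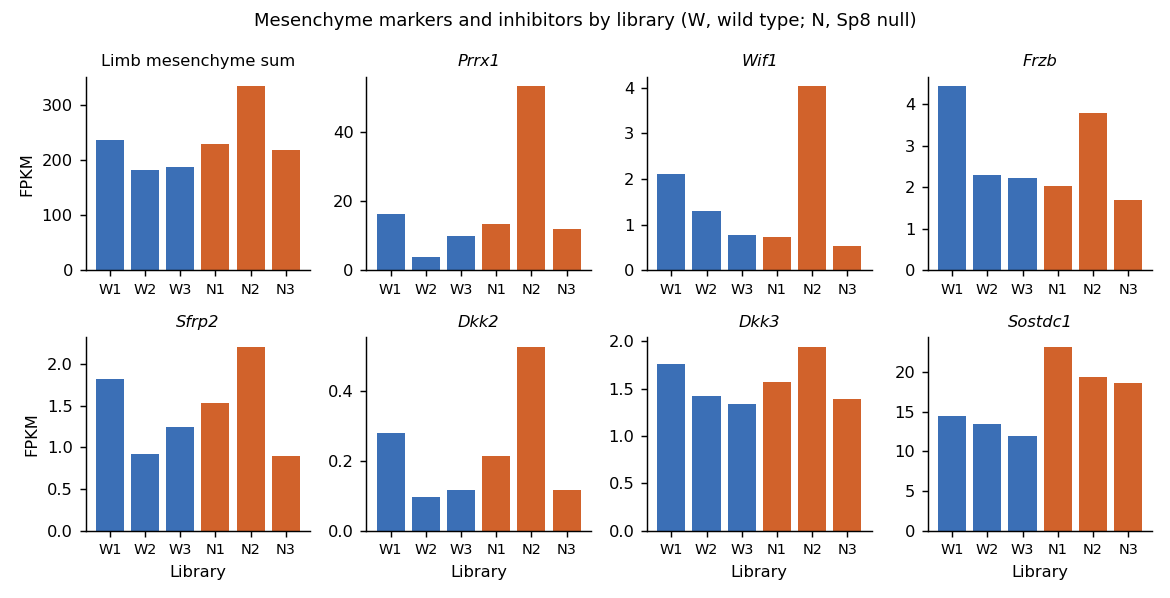
FPKM by library (W1 to W3, wild type; N1 to N3, Sp8 null) of the summed limb mesenchyme markers, the mesenchyme gene Prrx1, 5 inhibitors that are highest in W1 and N2 of their groups, and Sostdc1. Wif1 reaches 4.03 FPKM in N2 against 0.54 and 0.722 FPKM in the other Sp8 null libraries, whereas Sostdc1 is highest in N1.

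Of 14 further extracellular Wnt inhibitors and modulators, 6 passed the filter and 4 were called, Kremen2 and Igfbp4 higher and Apcdd1 and Tpbg lower. The median of the list was -0.47 on the log2 scale, against -0.06 over all tested genes. Of all tested genes 6.83% were called, which is also the background for the counts of the pathway lists below. Apcdd1, a membrane-bound inhibitor that is itself a Wnt target, fell from 20.2 ± 2.47 to 12.3 ± 0.0963 FPKM (SD, n = 3 each; log2 fold change -0.67, limma adjusted p = 0.00846). Tpbg, a membrane glycoprotein that dampens Wnt signalling, had means of 7.41 FPKM in wild type and 5.05 FPKM in Sp8 null (log2 fold change -0.48, limma adjusted p = 0.0251). Igfbp4, which binds insulin-like growth factors and can bind Lrp6, rose from 45.9 to 60.6 FPKM (0.40, limma adjusted p = 0.0359). Sost, the closest relative of Sostdc1 and named after its values were seen, was at 12.8 to 18.1 FPKM in wild type and 7.79 to 11.6 FPKM in Sp8 null (log2 fold change -0.70, limma adjusted p = 0.0571), so its means lay in the opposite order to those of Sostdc1. The call of Igfbp4 was lost without any 1 of the 6 libraries (log2 fold changes 0.33 to 0.46). That of Tpbg was lost without Sp8 null embryo 1 or 2 or wild-type embryo 2 or 3 (limma adjusted p from 0.0728 to 0.11).

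The receptors that the inhibitors act on were read next. Lrp6, the main receptor of Dkk1, was at 22.9 to 23.5 FPKM in wild type and 20.8 to 22.6 FPKM in Sp8 null (log2 fold change -0.09, SE 0.07, limma adjusted p = 0.456; 0.00191 with upper-quartile scaling). Lrp5 was at 11.4 to 14.1 and 9.16 to 12.0 FPKM (-0.24, limma adjusted p = 0.286). Of 16 receptors, 13 passed the filter and 3 were called. Fzd1, a Frizzled receptor, fell from 51.2 ± 4.75 to 11.8 ± 1.15 FPKM (SD, n = 3 each; log2 fold change -2.03, limma adjusted p = 5.2e-05). Lrp4, a receptor that Sostdc1 binds, fell (-0.41, limma adjusted p = 0.0467), and Ror1, a receptor of non-canonical Wnt signals, rose (0.70, 0.0341). The call of Lrp4 was lost without any library but wild-type embryo 3, and that of Ror1 without any but Sp8 null embryo 2 (limma adjusted p up to 0.161 and 0.103).

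Wnt ligands and R-spondins, whose action the inhibitors oppose, gave 4 called genes of 10 tested ligands (3 lower, 1 higher) and 2 of 7 tested genes for R-spondins and Frizzled turnover. Wnt5a, a mainly non-canonical ligand, fell from a mean of 64.7 FPKM to 13.3 FPKM, by 2.20 on the log2 scale with limma (adjusted p = 1.5e-05), and Wnt10b, a canonical ligand, rose from 4.23 to 12.7 FPKM (1.38, limma adjusted p = 0.00067). Wnt7a (-0.98) and Wnt3 (-0.52), both ectodermal ligands, also fell (limma adjusted p = 0.0188 and 0.0373). Rspo2, which protects Frizzled from turnover, fell from 14.0 to 0.227 FPKM (-3.61, limma adjusted p = 5.7e-06), and Lgr4, a receptor of R-spondins, rose (0.59, limma adjusted p = 0.0157). Wnt7a was no longer called without Sp8 null embryo 1 or wild-type embryo 2 or 3 (limma adjusted p up to 0.0745), and of the 6 fits that each omit a library, Wnt3 was called in the one without Sp8 null embryo 3 (0.0567 to 0.138 in the rest). Lgr4 was no longer called without Sp8 null embryo 2 (limma adjusted p = 0.0507) or wild-type embryo 2 (0.0668).

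Of 10 Wnt response genes, 8 passed the filter, and the 4 called genes were all lower. Over all tested genes 1.68% were called higher and 5.15% lower. The 4 response genes with a positive log2 fold change were not called. Among them Nkd2 changed most (1.30, limma adjusted p = 0.16), and its groups did not overlap. Axin2, a feedback inhibitor and the most widely used readout of canonical signalling, was at 31.3, 26.0 and 25.1 FPKM in wild-type embryos 1, 2 and 3 and at 27.6, 35.0 and 32.2 FPKM in Sp8 null embryos 1, 2 and 3. The groups overlapped (log2 fold change 0.19, SE 0.12, limma adjusted p = 0.358). These were Bambi (log2 fold change -2.57), Tcf7 (-1.67), Myc (-0.85) and Ccnd1 (-0.70), with adjusted p-values from limma of 1.5e-05, 0.000299, 0.0314 and 0.0173. Bambi is a decoy receptor that also responds to bone morphogenetic proteins, Tcf7 is a TCF/LEF factor, and Myc and Ccnd1 drive proliferation and respond to many pathways. The calls of Myc and Ccnd1 were lost without Sp8 null embryo 1 or any 1 wild-type library, and that of Myc also without Sp8 null embryo 3 (limma adjusted p from 0.051 to 0.104). Rspo2 and Bambi, like Dkk1, passed the filter through their wild-type libraries alone.

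**Figure D5:**
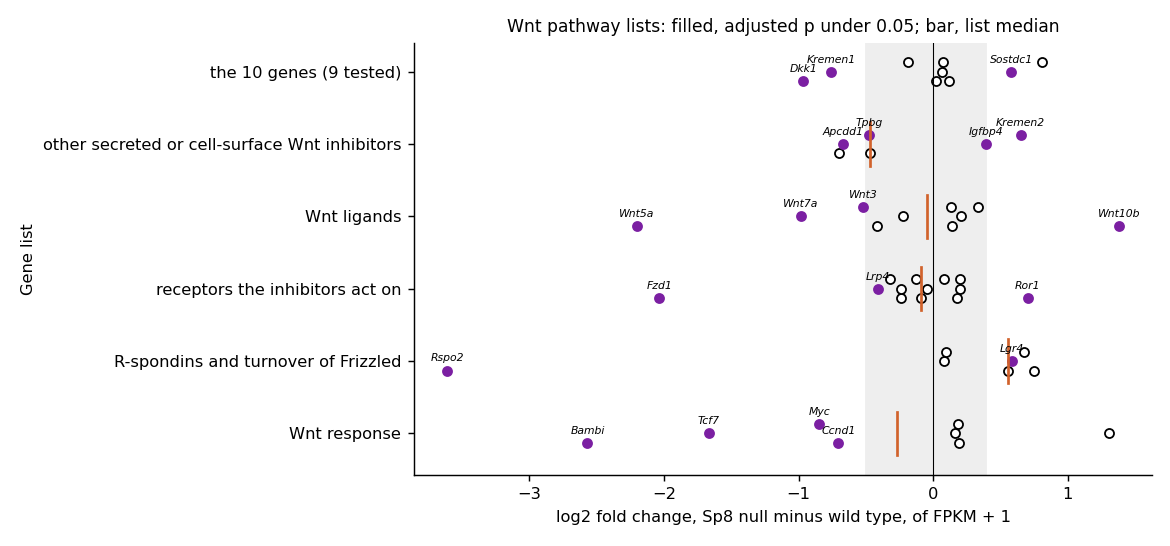
Log2 fold change of FPKM + 1 (Sp8 null minus wild type) of each tested gene in the inhibitor set and in the Wnt pathway lists; filled points passed an adjusted p of 0.05, bars are the medians of the pathway lists and the grey band is the 5th to 95th percentile of all tested genes. The 17 called genes of the pathway lists lie on both sides of 0, from Rspo2 at -3.61 to Wnt10b at 1.38.

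For the inhibitors with the largest tested differences, Dkk1 and Dkk4, the genes with the most similar profile were sought by the smallest root mean square difference of mean-centred log2(FPKM + 1) over the 6 libraries. The nearest to Dkk1 were Adgrg6, an adhesion G-protein-coupled receptor (0.0679), Epha2, an ephrin receptor (0.0764), and Emp1, an epithelial membrane protein (0.0875). Emp1 was at 89.3 to 93.6 FPKM in wild type and 43.4 to 55.6 FPKM in Sp8 null, a much higher level than Dkk1. Its likeness to Dkk1 depended on the pseudocount of 1. With a pseudocount of 0.1 the log2 fold change was -1.62 for Dkk1 and -0.95 for Emp1, against -1.55 for Adgrg6 and -1.61 for Epha2. The nearest to Dkk4 were Negr1 (0.115), Capsl (0.129) and Gm45371 (0.151). Sp8 null embryo 2 was the lowest null library for all 3 of them, as for Dkk4. The search over these same 6 libraries favours such a likeness, so it is not a separate finding.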

How the data were processed

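The authors deposited FPKM per gene and library, with a status for each estimate that was OK for all 10 genes. FastQC, SAMtools, TopHat2, DESeq2 and Cufflinks are named in the submitters' processing notes, with the GRCm38 genome; gene models are of Ensembl build 87, per the file headers. Their roles and versions are not given in the sources used here, nor are strandedness or the scaling of libraries. The authors' deposited table also holds, per the file headers, group means (a normalized signal on a scale of read counts), a signed fold change (a score) and a p-value whose test is not described; these were used only as description.

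A gene was tested where 3 or more of the 6 libraries reached 1 FPKM (12133 genes). Values of log2(FPKM + 1) were fitted on genotype alone in limma (version 3.58.1; R 4.3.3), with its mean-variance trend. P-values were two-sided and adjusted by Benjamini-Hochberg over all tested genes, with a threshold of 0.05. The fit was tested on simulated data, but the outcome of that test is not given here. Fits that left out a library kept the same 12133 genes.

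Depth is known only in relative terms, from the commonest ratio of low FPKM values, and no counting interval is given. Coordinates are from GENCODE M21 and promoter sequences from RefSeq. All 10 genes, Sp8, Axin2, Lrp6, Kremen2 and the nearest profiles were named by rule. So were up to 4 called genes per direction of each pathway list and the called markers with the smallest p-value. Lrp5, Sost, Prrx1, Lmx1b, Pdgfra, Meis1, Meis2, Tcf4, Hand2, Nkd2, Met and Erbb3 were named after their values were seen. The members and lists were chosen with earlier results of these data known. Alternatives were another pseudocount, no filter, 2 scalings, a replicate block, the first number in the sample names as a covariate, no trend, failed estimates left out and each library left out; those on mesenchyme markers and on names starting with 5 were chosen after seeing the data.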

Additional observations from a re-analysis of the deposited data

How the results depend on the processing

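Against 829 genes called over the whole table, the count was 342 with no filter, 328 with the replicate block, 545 with the number that opens the sample name as a covariate, 300 with the mesenchyme marker sum as a covariate, 325 without both libraries richest in mesenchyme markers, 251 in the libraries whose names start with 5, and 316 to 642 with 1 library left out. For the pathway lists (17 genes called) the counts under these settings were 8, 10, within 1.5 times of 17, 10, 11, 8 and 8 to 14. For the marker lists (4 called) the count was 1 with no filter, 2 with the replicate block, 2 in the libraries whose names start with 5, and 1 to 4 with 1 library left out. Dkk1 kept its direction but was no longer called with no filter (-0.97), the mesenchyme covariate (-0.94), both mesenchyme-rich libraries left out (-0.87) and names starting with 5 (-0.88). Kremen1 was not called under the last pair of these (-0.67 and -0.73). Sostdc1 was not called under the same 4 settings (0.58, 0.57, 0.67 and 0.55) and ran from 0.49 to 0.64 with 1 library left out. Sign changed among inhibitors that were never called: Dkk3 with the mesenchyme covariate (-0.093), Sfrp2 with the same (-0.26), Frzb in names starting with 5 (0.14), and Wif1 with a pseudocount of 0.1 (-0.11), the mesenchyme covariate (-0.83) and both libraries left out (-0.31). With 1 library left out these genes ran from -0.012 to 0.14, -0.070 to 0.31, -0.43 to 0.057 and -0.52 to 0.34. Lrp6, not called otherwise, reversed to 0.0019 with upper-quartile scaling. Fits on 4 or 5 libraries have fewer degrees of freedom, and testing without a filter covers more genes; the cause of the other shifts was not tested. Correlations between same-numbered embryos were -0.16, -0.14 and -0.07, and those between differently numbered embryos ran from -0.0085 to 0.14. With 3 embryos per genotype, these values cannot decide whether the numbers pair the embryos. The replicate block changed no call among the 10 genes. Of the further inhibitors, Igfbp4 and Tpbg were no longer called with it (limma adjusted p = 0.131 and 0.0894). Of the values recomputed for the inhibitors, 127 kept their direction and side of the threshold, 14 lost the call and 12 changed sign. No group was of a size that allows a check for single outlying embryos. The depth behind values under 1 FPKM, such as those of Dkk2 and those of Dkk1 and Rspo2 in Sp8 null, is not known, so ratios that rest on them carry no counting error.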
